A study of Rattus norvegicus with 16 samples.

Results

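The genes described here are 9 genes that muscle uses to break down its own protein, to slow protein synthesis or to clear damaged mitochondria: Fbxo32, Trim63, Foxo1, Foxo3, Ddit4, Ddit4l, Sesn1, Mstn and Bnip3. A probe set, the group of short probes that reports 1 transcript on an Affymetrix array, was taken as a member when its annotation held 1 gene symbol and that symbol was among the 9. This gave 14 probe sets for 9 genes, out of 20826 such probe sets for 14217 genes: 3 for Foxo1, 3 for Foxo3, 2 for Sesn1 and 1 for each of the other 6. A gene with more than 1 is represented by its brightest probe set, on average over the 16 arrays, unless another is named. The 9 genes were selected on values of these same arrays in every comparison given below, so their differences between groups are a description and their adjusted p-values only say where each gene stood in the fit over all probe sets.

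Expression was measured in the left ventricle (LV) of adult male Sprague-Dawley rats, with 1 array per rat and 4 rats per group. Rats of 3 groups carried an aortocaval fistula (ACF), a surgical shunt between the abdominal aorta and the inferior vena cava that loads the heart with excess volume, and their hearts were taken 8, 16 or 24 weeks after surgery, whereas the labels call the control hearts baseline. The study assigned 8 weeks to compensated hypertrophy (CH) and 16 weeks to heart failure (HF), and its methods describe sham-operated controls. It names no phase for 24 weeks. In the labels the 4 arrays titled 24 weeks are described as 24, 25, 26 and 27 weeks. If the controls were taken at baseline, age and surgery differ together with the fistula in every comparison with control, and these cannot be told apart. The same 4 control arrays serve all 3 times. Even as sham hearts they could not, as a group, match the age of all 3 ACF groups. All groups share sex and strain, no genetic change is named for any of them, the methods name ketamine, xylazine and halothane as anaesthetics, and each sample is a piece of whole ventricle that holds muscle, fibroblasts, vessels and blood-borne cells.

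Muscle mass is the balance of synthesis and breakdown. Akt, activated by insulin and insulin-like growth factor, phosphorylates the forkhead factors Foxo1 and Foxo3 and keeps them out of the nucleus; when Akt activity falls, FoxO proteins enter the nucleus and switch on the muscle ubiquitin ligases Fbxo32 (atrogin-1, MAFbx) and Trim63 (MuRF1), which mark proteins for the proteasome. Ddit4 (REDD1), its relative Ddit4l (REDD2) and Sesn1 (sestrin 1) act as brakes on mTOR complex 1, the kinase complex that drives protein synthesis. Mstn encodes myostatin, a secreted member of the TGF-beta family that limits muscle growth, and Bnip3 encodes a protein of the mitochondrial outer membrane that recruits the autophagy machinery to mitochondria and is a known target of both FoxO3 and the hypoxia-inducible factor.

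The deposited array medians lay at 2 levels, 6.13 to 6.17 on 9 arrays (3 of 8 weeks, 2 of 16 weeks and all 4 control arrays) and 5.92 to 5.96 on 7 arrays (1 of 8 weeks, 2 of 16 weeks and the whole 24-week group), so every array was centred on its median before any comparison. Values below are centred log2 intensities, in which a difference of 1 is a doubling, and levels of different probe sets are set against each other only to choose the brightest of a gene. Of the 16 arrays, ACF 16 weeks replicate 1 stood apart: its 11 ventricular cardiomyocyte marker genes averaged 13.45, against 13.68 to 13.84 on the other 15 arrays, and its 10 macrophage and 10 matrix marker genes averaged 8.81 and 10.78, the highest of all arrays. Its 8 skeletal muscle marker genes averaged 5.94, inside the range of the other arrays (5.79 to 6.40). The cardiomyocyte markers were high on every array, and 0 of the 11 were called against control at 8, 16 or 24 weeks. At 16 weeks their differences ran from -0.47 for Myh6 (adjusted p = 0.230 in limma) to 0.08 for Pln. The count of 0 does not show that the share of muscle cells was unchanged. Macrophage markers averaged 7.91 to 8.15 at 8 weeks, 8.02 to 8.81 at 16 weeks and 7.63 to 8.14 at 24 weeks, against 7.08 to 7.37 in control ventricles. Atrial cardiomyocyte markers, 4 genes, varied widely within every group, from 6.97 to 12.11 over the 16 arrays. Of these 4, 1 was called higher and 0 lower at 16 weeks. It was Nppa, with a difference of 2.21 (adjusted p = 0.00889 in limma), while Myl7 differed by -1.27 and was not called. Of 15 genes of the circadian clock, 2 were higher and 6 lower at 16 weeks and 0 were called at 8 or 24 weeks, and their mean lay at 7.70 to 7.94 at 16 weeks, against 8.10 to 8.22 in control ventricles. Dbp, a clock output factor, differed by -2.54 (adjusted p = 0.000890 in limma) and Bmal1, a core activator of the clock, by 2.06 (adjusted p = 0.00574) at 16 weeks. Whether these differences in cell type markers and in clock genes have a part in the differences below was not tested. In whole ventricle, fewer cells of a type and less RNA per cell cannot be told apart.

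At 16 weeks Bnip3 was higher and Ddit4l lower than in control ventricles, and the other 7 genes did not pass the threshold of 0.05 on the adjusted p. Bnip3 lay 1.66-fold above control (95% confidence interval 1.34 to 2.07) and Ddit4l at 0.371 of control (0.232 to 0.594). Among all 14217 genes, 4.92% were called higher and 2.59% lower at 16 weeks, set here beside 1 and 1 of 9 members without reading anything from it, since the members were chosen from these values. At 8 weeks 0 of 9 members were called in either direction (all genes: 0.0352% higher and 0.00703% lower), although 2 had an unadjusted p under 0.05. At 24 weeks 0 of 9 were called (all genes: 0.415% higher and 0.169% lower), with 3 at an unadjusted p under 0.05. Between 16 and 8 weeks 0 of 9 were called (all genes: 0%) with 2 at an unadjusted p under 0.05, and between 24 and 16 weeks 0 of 9 (all genes: 0.00703%) with 1. The median log2 difference of the 9 genes was 0.04, 0.14 and -0.01 at 8, 16 and 24 weeks, while that of all genes was -0.0029, -0.0022 and 0.00058.

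**Figure D1:**
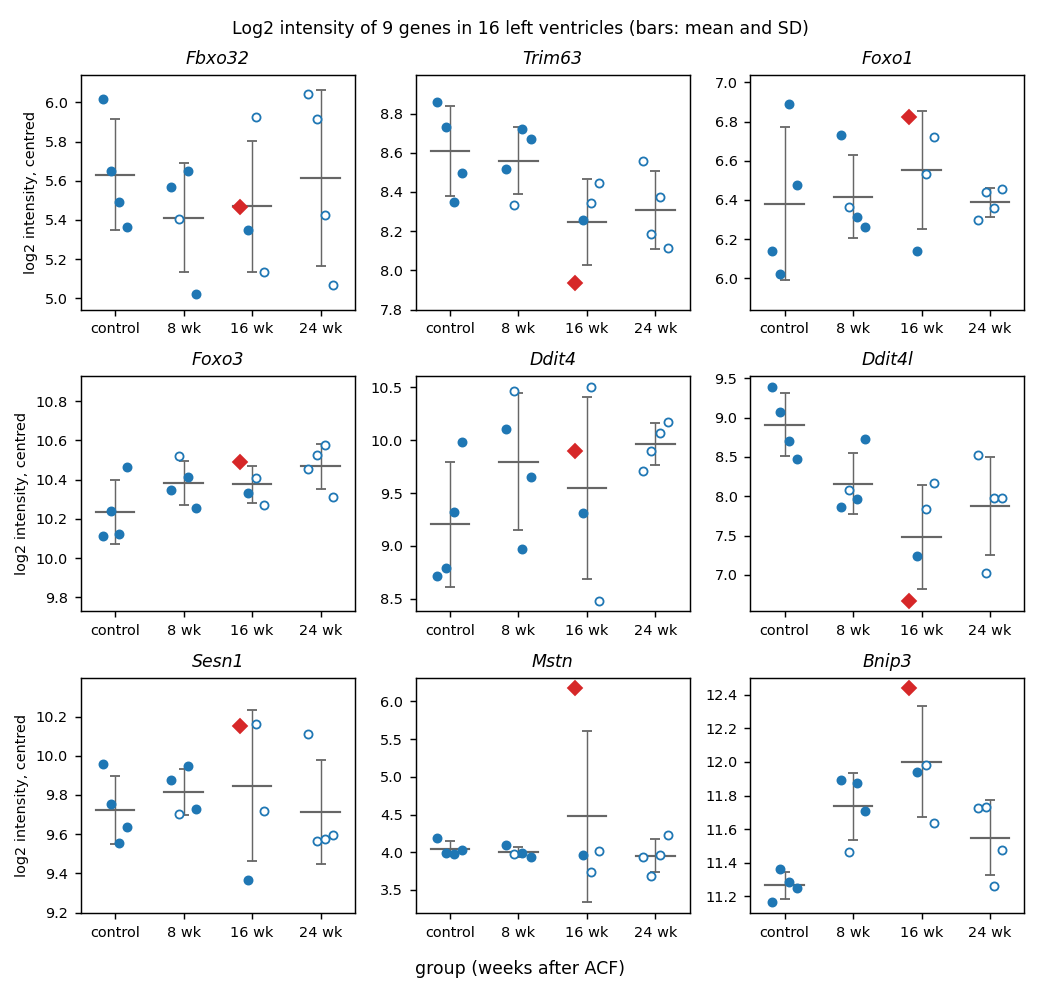
Centred log2 intensity (vertical axis, own scale in each panel) of the 9 genes on each array, by group along the horizontal axis; bars are the mean and SD of 4 arrays, filled circles arrays at the higher level of the deposited medians, open circles arrays at the lower level, and the red diamond ACF 16 weeks replicate 1. Bnip3 lies above all control arrays at 8 and 16 weeks and Ddit4l below all control arrays at 16 weeks, while the single high Mstn value is the red diamond at 6.17.

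Bnip3 was the member with the narrowest control values. Its log2 intensity at 16 weeks was 12.44, 11.94, 11.98 and 11.64, against 11.17, 11.36, 11.29 and 11.25 in control ventricles. All 4 hearts at 16 weeks therefore lay above all 4 control hearts, with replicate 1 the highest. At 8 weeks the values were 11.89, 11.47, 11.87 and 11.71, again all above control, and at 24 weeks they were 11.73, 11.73, 11.26 and 11.48, of which 3 of 4 exceeded every control value. The log2 difference from control was 0.73 at 16 weeks (SE 0.15, adjusted p = 0.00911 in limma), 0.47 at 8 weeks (adjusted p = 0.457) and 0.28 at 24 weeks (adjusted p = 0.379). The level at 24 weeks was 0.45 below that at 16 weeks, a difference that did not pass (SE 0.15, adjusted p = 0.501). A decline from 16 to 24 weeks was therefore not shown.

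The call on Bnip3 at 16 weeks held when any 1 of the 16 arrays was left out, with differences of 0.59 to 0.86 and adjusted p-values up to 0.0370; 0.59 was the value without replicate 1. On values as deposited, where all genes together shifted by -0.12 at 16 weeks, the difference was 0.62 and the adjusted p 0.0510. With the level of the array medians as a block it was 0.92 (adjusted p = 0.00183), and within the arrays of the higher level alone it was also 0.92 (adjusted p = 0.00317). At the higher level the 16-week group holds only 2 arrays, replicates 1 and 2, and replicate 1 has the highest value of the gene. All control arrays lie at the higher level, so the block setting adjusts the other 16-week arrays to that level. It is therefore not independent of the setting with the higher level alone.

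Ddit4l, the REDD2 gene, had the widest range of group means, 1.43 on the log2 scale. At 16 weeks its log2 intensity was 6.67, 7.24, 7.84 and 8.16, against 9.39, 9.07, 8.71 and 8.47 in control ventricles. The groups did not overlap, but they came close at 8.16 and 8.47. At 8 weeks the values were 7.86, 8.08, 7.96 and 8.73, and at 24 weeks 8.52, 7.03, 7.98 and 7.98; in each of these groups 3 of 4 hearts lay below every control heart and 1 lay within the control range. Relative to control it differed by -0.75 at 8 weeks (SE 0.32, adjusted p = 0.735 in limma), -1.43 at 16 weeks (adjusted p = 0.0157) and -1.03 at 24 weeks (adjusted p = 0.140). Its mean was lowest at 16 weeks. The steps between times did not pass, with -0.68 for 16 minus 8 weeks (adjusted p = 0.706) and 0.40 for 24 minus 16 weeks (adjusted p = 0.789).

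The call on Ddit4l rested on 2 single arrays. Without control replicate 1, its highest value, the difference at 16 weeks was -1.27 with an adjusted p of 0.0612, and without ACF 16 weeks replicate 1, its lowest, it was -1.16 with an adjusted p of 0.0564. On values as deposited Ddit4l passed at 16 weeks (-1.55, adjusted p = 0.00727) and also at 24 weeks (-1.24, adjusted p = 0.0249), where all genes together shifted by -0.21. Within the arrays of the higher level it stood at -1.95 (adjusted p = 0.00323) at 16 weeks. There the 16-week group holds only replicates 1 and 2, its 2 lowest values, so this setting leans on replicate 1 as well.

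The plot of differences shows that these 2 probe sets were the only ones of 14 past the threshold at any time after ACF.

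**Figure D2:**
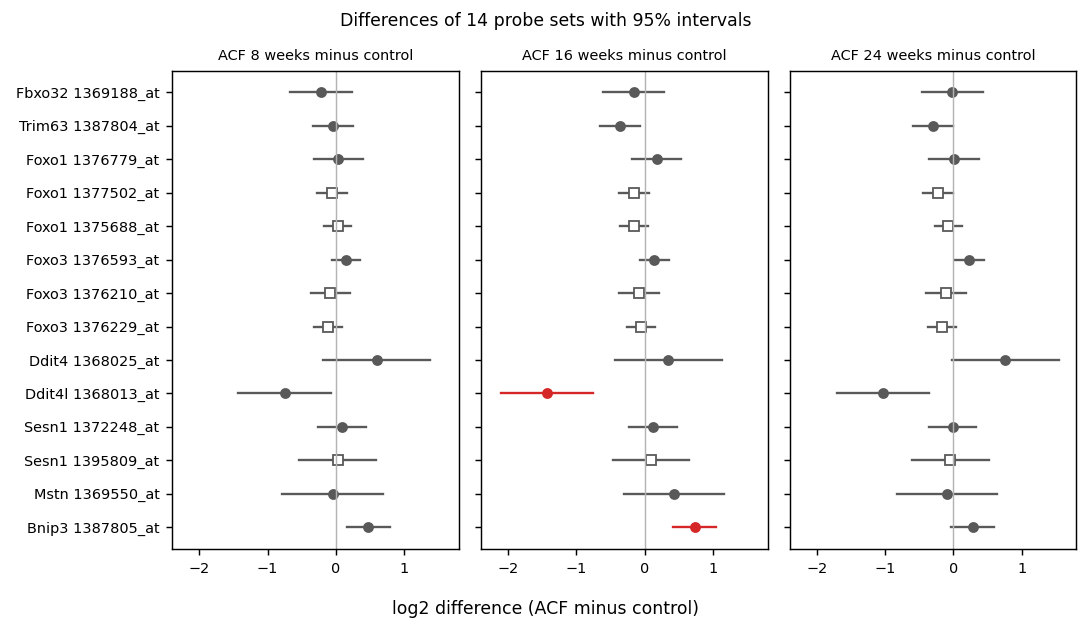
Log2 difference (horizontal axis) of each of the 14 probe sets at 8, 16 and 24 weeks minus control, with 95% intervals from limma; red marks an adjusted p under 0.05, circles the probe set that stands for its gene, and open squares further probe sets of the same gene. Ddit4l at -1.43 and Bnip3 at 0.73 are the red points, both at 16 weeks, and the Foxo1 and Foxo3 squares lie on the other side of 0 from their circles at 16 weeks.

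The promoters of these 2 genes are shown because Bnip3 is a known target of the hypoxia-inducible factor while Ddit4l is a relative of another such target, Ddit4. Each runs from 250 bases before to 50 bases after the annotated start in RefSeq on build GRCr8, and 6 of the 9 members had such an entry. The Bnip3 window is chr1:203154913-203155212 on the minus strand, and capitals mark CACGTG. In it ACGTG, a form of the core of the hypoxia response element, reads on both strands, 98 and 99 bases before the start. The Ddit4l window is chr2:228801457-228801756 on the plus strand, and capitals mark a TATA box, TATAAA, 31 bases before the start.
Bnip3: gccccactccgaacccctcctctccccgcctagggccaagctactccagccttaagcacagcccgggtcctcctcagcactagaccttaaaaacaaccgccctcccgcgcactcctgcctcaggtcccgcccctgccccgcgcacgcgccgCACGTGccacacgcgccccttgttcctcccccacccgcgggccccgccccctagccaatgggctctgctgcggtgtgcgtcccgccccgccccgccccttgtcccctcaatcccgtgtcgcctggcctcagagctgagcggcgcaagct
Ddit4l: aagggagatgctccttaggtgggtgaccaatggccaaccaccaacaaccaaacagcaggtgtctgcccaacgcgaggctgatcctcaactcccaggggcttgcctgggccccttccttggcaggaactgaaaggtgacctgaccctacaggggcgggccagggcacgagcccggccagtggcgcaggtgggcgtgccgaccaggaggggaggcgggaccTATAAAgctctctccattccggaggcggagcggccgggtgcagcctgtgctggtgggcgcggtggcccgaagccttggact
Both motifs were searched on both strands. ACGTG lies in 19.3% of all 33469 rat promoters of this length and TATAAA in 14.2%; a match of these letters is not a site of binding. No ACGTG was found in the Ddit4l window. Other forms of the hypoxia core were not searched, so this does not show that the window lacks a hypoxia response element.

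Ddit4, which hypoxia and glucocorticoids induce in many tissues, varied widely between hearts of a group except at 24 weeks. Its log2 intensity was 10.11, 10.46, 8.97 and 9.65 at 8 weeks, 9.90, 9.32, 10.51 and 8.48 at 16 weeks, and 9.71, 9.90, 10.07 and 10.17 at 24 weeks, against 8.71, 8.79, 9.32 and 9.99 in control ventricles. Control and ACF values overlapped at each time, and the 4 hearts at 16 weeks alone covered 2.02 units. After 8, 16 and 24 weeks it differed from control by 0.60, 0.35 and 0.76, each with an SE of 0.37 (adjusted p 0.922, 0.675 and 0.343). The SD within the group was 0.65, 0.86 and 0.20 at 8, 16 and 24 weeks, against 0.59 in control ventricles. The 95% interval of the difference at 16 weeks ran from -0.44 to 1.13, wide enough to hold either direction.

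The Ddit4 promoter, chr20:28436988-28437287 on the minus strand, is printed for comparison with that of Bnip3; capitals mark 1 ACGTG, 138 bases before the start.
Ddit4: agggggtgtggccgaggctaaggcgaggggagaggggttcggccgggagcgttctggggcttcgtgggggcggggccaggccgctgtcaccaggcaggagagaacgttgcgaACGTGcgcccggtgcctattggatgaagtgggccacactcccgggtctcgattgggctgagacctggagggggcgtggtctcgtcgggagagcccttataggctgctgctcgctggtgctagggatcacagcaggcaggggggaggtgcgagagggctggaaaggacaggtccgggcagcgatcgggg
ACGTG, the only form of the hypoxia core searched, lay in 2 promoters of members. They belonged to Bnip3, which was called at 16 weeks, and Ddit4, which was not.

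Sesn1, the remaining brake on mTOR complex 1, is a target of p53 and FoxO that relays low leucine. Its log2 intensity was 10.15, 9.36, 10.16 and 9.72 at 16 weeks, against 9.96, 9.75, 9.56 and 9.64 in control ventricles. The 16-week values enclosed those of control on both sides. The differences were 0.09, 0.12 and -0.01 at 8, 16 and 24 weeks (SE 0.16), and the second probe set gave 0.02, 0.09 and -0.05 (SE 0.27). At 24 weeks 3 hearts lay between 9.57 and 9.60 and replicate 1 at 10.11.

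The 2 ubiquitin ligases of muscle atrophy were not called in any comparison. Trim63, whose product MuRF1 ubiquitinates proteins of the sarcomere, had a log2 intensity of 7.94, 8.26, 8.35 and 8.45 at 16 weeks, against 8.86, 8.73, 8.35 and 8.49 in control ventricles. At 16 weeks 3 of 4 hearts lay below every control heart, replicate 3 only barely (8.346, against 8.347 for the lowest control), and the fourth lay within the control range. The values were 8.52, 8.34, 8.72 and 8.67 at 8 weeks and 8.56, 8.19, 8.38 and 8.11 at 24 weeks. The difference was -0.05 at 8 weeks (SE 0.14, adjusted p = 0.993), -0.36 at 16 weeks (adjusted p = 0.150) and -0.30 at 24 weeks (adjusted p = 0.314), with 95% intervals of -0.66 to -0.07 at 16 weeks and -0.59 to -0.01 at 24 weeks. On values as deposited Trim63 passed at 24 weeks (-0.51, adjusted p = 0.0365), and all 4 of these arrays lay at the lower level of the medians and all control arrays at the higher.

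Fbxo32, the F-box subunit of the atrogin-1 ligase, overlapped between control and each ACF group. Its log2 intensity was 5.47, 5.35, 5.93 and 5.13 at 16 weeks, against 6.01, 5.65, 5.49 and 5.36 in control ventricles. The 8-week values ran from 5.02 to 5.65 and the 24-week values from 5.07 to 6.04. The differences were -0.22, -0.16 and -0.02 at 8, 16 and 24 weeks (SE 0.21, adjusted p 0.980, 0.745 and 0.979), and the 95% interval at 16 weeks was -0.61 to 0.29.

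The Trim63 promoter is printed because glucocorticoids and FoxO proteins are known, from mouse and human work, to act on this gene through neighbouring elements of its promoter. The window is chr5:151816986-151817285 on the plus strand. Capitals mark matches that do not overlap: in order, the glucocorticoid element formed by GAACA and TGTTC with 3 bases between them, which starts 219 bases before the start of the gene, the FoxO core GTAAACA read on the other strand, 205 bases before it, and TATAAA, 42 bases before it.
Trim63: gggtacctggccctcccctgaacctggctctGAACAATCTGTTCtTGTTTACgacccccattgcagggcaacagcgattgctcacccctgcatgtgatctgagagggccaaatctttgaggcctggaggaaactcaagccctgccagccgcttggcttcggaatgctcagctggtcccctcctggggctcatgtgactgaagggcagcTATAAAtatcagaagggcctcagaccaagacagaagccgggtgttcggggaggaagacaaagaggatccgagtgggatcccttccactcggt
GAACA and TGTTC at this distance, searched on both strands, were found in 17 of 33469 rat promoters (0.0508%), and GTAAACA, searched on both strands, in 3.78%. Of the 6 members with an entry, Trim63 alone held the FoxO core and the glucocorticoid element, and none of the 4 motifs lay in the windows of Foxo1 and Sesn1. Fbxo32, Foxo3 and Mstn had no entry.

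The forkhead genes themselves were not called. Foxo3 had a log2 intensity of 10.46, 10.52, 10.58 and 10.31 at 24 weeks, against 10.11, 10.24, 10.12 and 10.46 in control ventricles. Of the 4 hearts at 24 weeks, 2 lay above every control heart. The differences were 0.15, 0.14 and 0.23 at 8, 16 and 24 weeks (SE 0.10, adjusted p 0.934, 0.478 and 0.271). The other 2 Foxo3 probe sets, with group means of 3.44 to 4.90, gave differences of -0.17 to -0.05, none of which passed. Their sign was opposite to that of the brightest. Without detection calls it is not known whether these dim probe sets were above background.

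Foxo1 had a log2 intensity of 6.82, 6.14, 6.53 and 6.72 at 16 weeks, against 6.14, 6.02, 6.89 and 6.48 in control ventricles. All 16-week values fell inside the control range. The differences were 0.04, 0.17 and 0.01 at 8, 16 and 24 weeks (SE 0.17). The second probe set gave -0.06, -0.16 and -0.22 (SE 0.10), and the third gave 0.02, -0.16 and -0.07. None of the 3 passed, and at 16 weeks they did not share a sign.

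Mstn was low on 15 of the 16 arrays and high on 1. Its log2 intensity was 6.17, 3.97, 3.74 and 4.02 at 16 weeks, against 4.19, 3.99, 3.98 and 4.02 in control ventricles. The 8-week values ran from 3.94 to 4.10 and the 24-week values from 3.69 to 4.22. The mean difference of 0.43 at 16 weeks (SE 0.35, adjusted p = 0.553) rested on replicate 1, without which it was -0.14. No detection calls were given, so whether Mstn was above background on the other arrays is not known. Replicate 1 at 16 weeks was also the highest of all 16 arrays for Bnip3 and the lowest for Trim63 and Ddit4l, and control replicate 1 took the opposite place for these 3 genes.

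**Figure D3:**
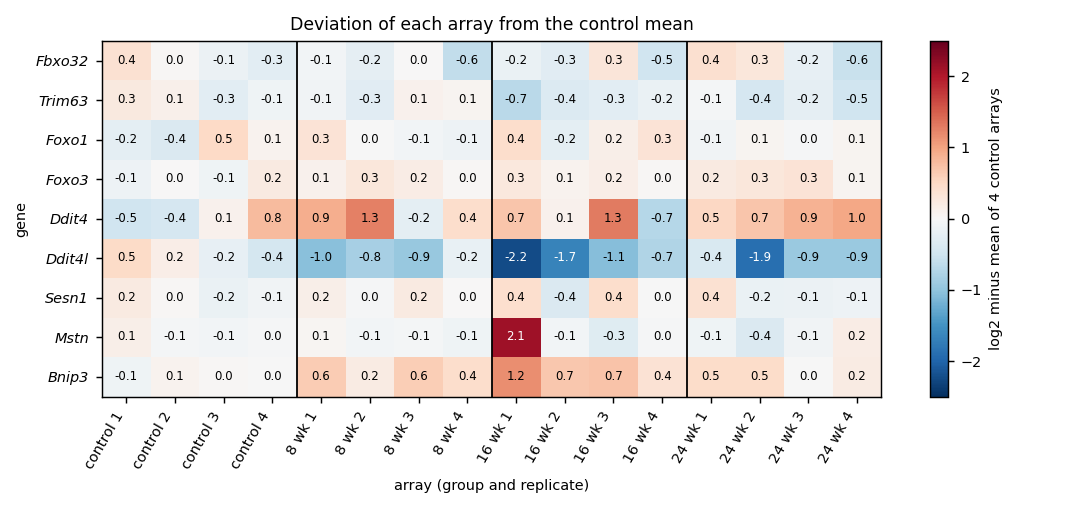
Log2 intensity of each of the 9 genes (vertical axis) on each of the 16 arrays (horizontal axis) minus the mean of the 4 control arrays; red is above and blue below that mean, and vertical lines separate the groups. The row of Bnip3 is above the control mean on all ACF arrays except ACF 24 weeks replicate 3, which lies at it, and the row of Ddit4l is below it on all 12, with ACF 16 weeks replicate 1 at the extremes for Mstn, Bnip3, Ddit4l and Trim63.

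For the 3 members with the widest range of group means, the genes whose 16 values followed theirs most closely were found by the root mean square difference after subtraction of each gene's own mean. Nearest to Ddit4l were Dhrs7c at 0.29, Fam81a and LOC102547411, both at 0.30; all 3 had their lowest mean at 16 weeks, Dhrs7c with differences from control of -0.43, -1.55 and -0.95 at 8, 16 and 24 weeks. Nearest to Ddit4 were Nfkbia, the inhibitor of NF-kappa-B, at 0.20, Irf2bp2 at 0.27 and Sgk1, a kinase induced by serum and glucocorticoids, at 0.28. Like Ddit4, each of these had a larger difference at 8 and 24 weeks than at 16 weeks, Nfkbia with 0.75, 0.33 and 0.90. Nearest to Bnip3 were Gmnn and Slc16a1, the monocarboxylate transporter MCT1, both at 0.15, and Ivns1abp at 0.16. The distances describe 16 arrays that share 4 groups and carry no test.

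The wider pathways were followed with 12 lists of genes drawn up with earlier results of these arrays known. Over 203 distinct genes measured, 14 were higher and 5 lower at 16 weeks, and in all 12 lists 0 genes were called at 8 weeks and 0 at 24 weeks. Counts below are therefore for 16 weeks, and the background of 4.92% higher and 2.59% lower applies to them. Counts and medians of the lists are descriptions without a test. Of the 19 called genes, 9 passed whichever 1 of the 16 arrays was left out, and the other 10 fell short without 1 or more of them.

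**Figure D4:**
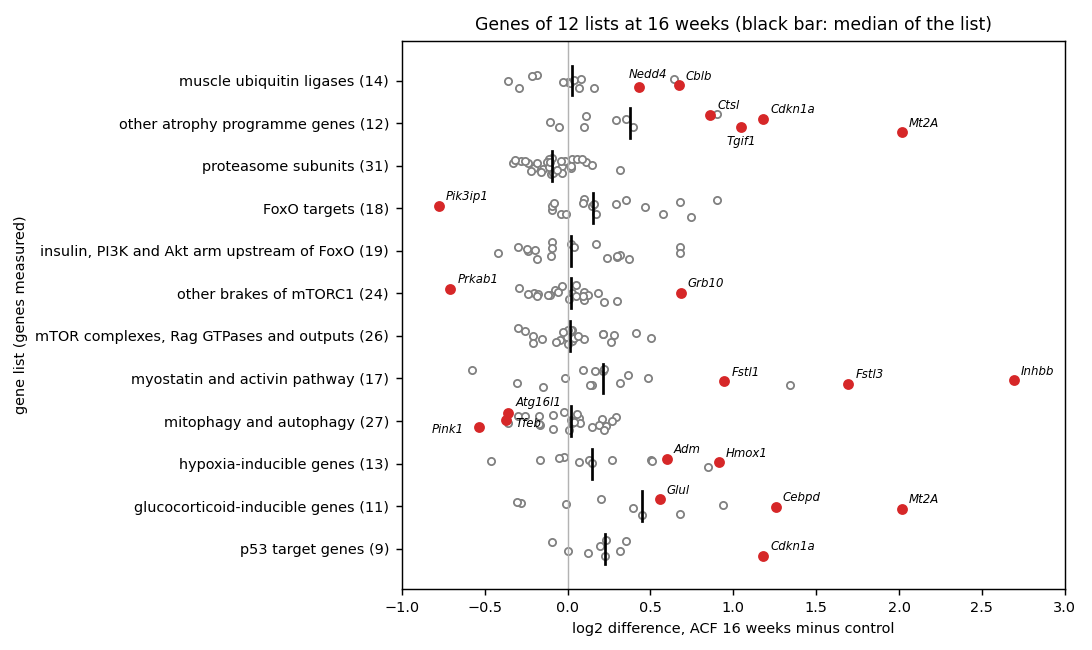
Log2 difference at 16 weeks minus control (horizontal axis) of every measured gene of 12 lists (vertical axis, number measured in parentheses); red circles with names have an adjusted p under 0.05 in limma, open circles do not, and black bars are list medians. The points past the threshold lie mostly to the right, with Inhbb at 2.69 and Mt2A at 2.02 farthest, and the lists of proteasome subunits, of the insulin, PI3K and Akt arm and of the mTOR complexes hold none.

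Of 14 further muscle ubiquitin ligases, 2 were higher and 0 lower, with a median of 0.03. Nedd4, a HECT-type ligase, was higher by 0.43 (SE 0.09, adjusted p = 0.0132), and Cblb, a ligase that targets insulin receptor substrate in unloaded muscle, by 0.67 (SE 0.16, adjusted p = 0.0248). Nedd4 stood at 12.42, 12.06, 12.17 and 12.10 at 16 weeks, against 11.69, 11.85, 11.71 and 11.77 in control ventricles, so the groups did not overlap. Neither passed on values as deposited (adjusted p 0.100 for Nedd4 and 0.0816 for Cblb), and Cblb fell short without replicate 1 at 16 weeks or without control replicate 1, 2 or 3 (adjusted p up to 0.0929), whereas Nedd4 passed without any 1 array.

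Of 12 other genes of the atrophy programme, 4 were higher and 0 lower (median 0.37). They were Mt2A, a metal-binding metallothionein, by 2.02 (SE 0.38, adjusted p = 0.00560), Ctsl, a lysosomal protease, by 0.86 (SE 0.15, adjusted p = 0.00370), Tgif1, a repressor of TGF-beta signalling, by 1.05 (SE 0.21, adjusted p = 0.00883), and Cdkn1a, the cell cycle inhibitor p21, by 1.18 (SE 0.24, adjusted p = 0.0103). Ctsl stood at 12.55, 12.00, 11.81 and 11.85 at 16 weeks, against 11.23, 11.20, 11.26 and 11.08 in control ventricles, and the gap between the groups was wider than the control range. All 4 passed under each scaling tried, with the array level as a block and without any 1 array. Ctsl is also abundant in macrophages, whose markers averaged 8.02 to 8.81 on these arrays, against 7.08 to 7.37 in control ventricles; their part in its difference was not tested. Of 31 proteasome subunits 0 were called (median -0.09), the nearest being Psmc3, an ATPase of the regulatory particle, at -0.33 (SE 0.11, adjusted p = 0.100); on values as deposited 3 subunits were called, all lower.

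Upstream of and beside FoxO, few genes passed. The list of FoxO targets does not cover every known target. Bnip3, higher at 16 weeks, was counted outside it, as were Ctsl and Cdkn1a. Of 18 FoxO targets, 1 was lower and 0 higher (median 0.15): Pik3ip1, an inhibitor of PI3K, at 8.35, 8.72, 8.39 and 9.10 at 16 weeks, against 9.75, 9.42, 9.32 and 9.18 in control ventricles, a difference of -0.78 (SE 0.20, adjusted p = 0.0303). The groups were separated by the gap between 9.10 and 9.18, and the call was lost without replicate 1, 2 or 3 of either group (adjusted p up to 0.108). In the insulin, PI3K and Akt arm 0 of 19 genes were called, the nearest being Pik3r2, a regulatory subunit of PI3K, at -0.30 (SE 0.09, adjusted p = 0.0585). Of 24 other brakes of mTOR complex 1, 1 was higher and 1 lower (median 0.02). Grb10, an adaptor that dampens insulin and growth factor receptors, was higher by 0.68 (SE 0.15, adjusted p = 0.0123), and Prkab1, a subunit of AMP-activated kinase, had a difference of -0.71 (SE 0.17, adjusted p = 0.0222). Grb10 did not pass on values as deposited (adjusted p = 0.0515) and Prkab1 did not without replicate 1 or 2 of either group (adjusted p up to 0.0820). Of 26 genes of the mTOR complexes, Rag GTPases and outputs 0 were called (median 0.01), the nearest being Rheb, the GTPase that activates mTOR complex 1, at 0.28 (SE 0.08, adjusted p = 0.0550).

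In contrast with Mstn itself, the joint list of myostatin and activin genes held the largest difference of the lists, in a subunit of activin. Of 17 genes of the myostatin and activin pathway, 3 were higher and 0 lower (median 0.21). Inhbb, the beta-B subunit of activin and inhibin, stood at 8.84, 8.71, 9.17 and 7.76 at 16 weeks, against 6.07, 5.63, 5.37 and 6.62 in control ventricles. All 4 hearts exceeded every control heart by more than 1 unit, and the difference was 2.69 (SE 0.42, adjusted p = 0.00186). At 24 weeks its values were 6.33, 8.70, 6.72 and 6.37, of which replicate 2 alone was at the height of the 16-week hearts. Fstl3, a secreted protein that binds activin and myostatin, was higher by 1.69 (SE 0.33, adjusted p = 0.00680), and Fstl1, a secreted glycoprotein of the follistatin-like group, by 0.94 (SE 0.20, adjusted p = 0.0124). All 3 passed under each scaling, with the array level as a block and without any 1 array. Fibroblast and matrix markers averaged 10.13 to 10.78 at 16 weeks, against 9.21 to 9.85 in control ventricles. Of these 10 markers, 6 were called higher and 0 lower at 16 weeks. The rise was uneven, with differences from -0.25 for Tcf21 and 0.18 for Pdgfra, both not called, to 4.28 for Postn. The part of these markers in the differences of Inhbb, Fstl3 and Fstl1 was not tested.

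**Figure D5:**
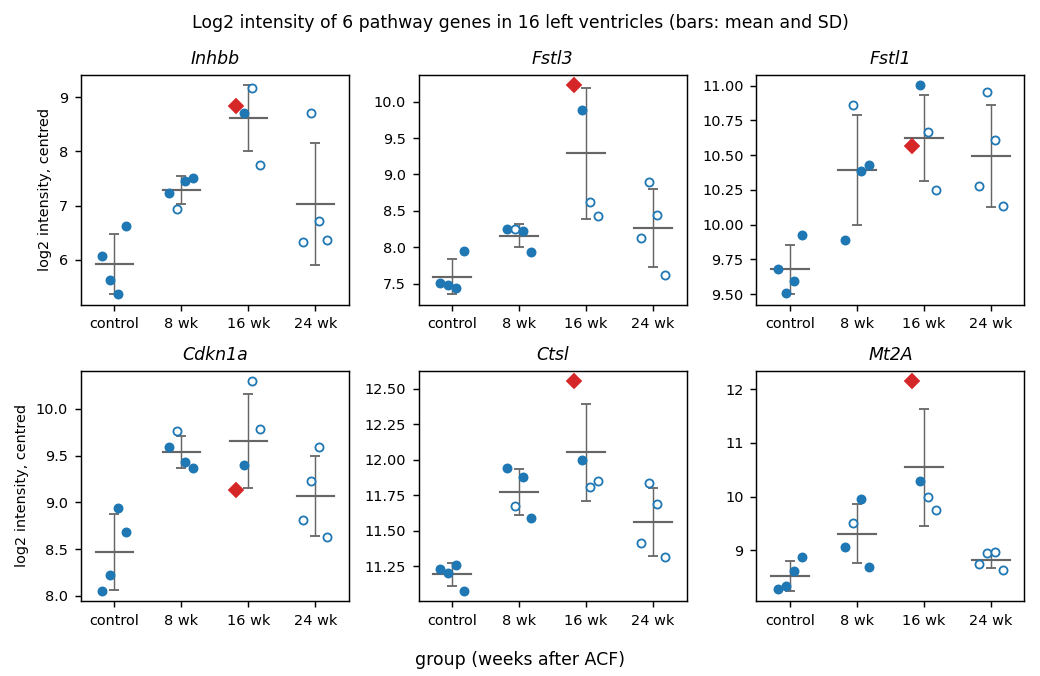
Centred log2 intensity (vertical axis, own scale in each panel) of 6 genes of the lists on each array, by group along the horizontal axis; bars are the mean and SD of 4 arrays, filled and open circles arrays at the higher and lower level of the deposited medians, and the red diamond ACF 16 weeks replicate 1. At 16 weeks all 4 arrays of Inhbb, Fstl3, Fstl1, Cdkn1a, Ctsl and Mt2A lie above all control arrays, and Mt2A at 12.14 and Ctsl at 12.55 are highest in replicate 1.

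Around Bnip3, 27 genes of mitophagy and autophagy held 3 lower and 0 higher genes (median 0.02), opposite in direction to Bnip3 itself. Pink1, the kinase that marks damaged mitochondria for removal, stood at 11.53, 11.94, 12.06 and 12.19 at 16 weeks, against 12.49, 12.48, 12.43 and 12.46 in control ventricles. The control hearts were tight and all 4 ACF hearts lay below them, with a difference of -0.53 (SE 0.12, adjusted p = 0.0180). Atg16l1, part of the complex that lipidates LC3, had a difference of -0.36 (adjusted p = 0.0261), and Tfeb, a transcription factor of lysosomal genes, -0.37 (adjusted p = 0.0368). All 3 passed under each scaling, but none did without replicate 1 at 16 weeks, the array with the lowest cardiomyocyte markers (adjusted p 0.0529 for Pink1, 0.0886 for Atg16l1 and 0.120 for Tfeb), or without control replicate 1 or 2. Atg16l1 and Tfeb also fell short without control replicate 3 or replicate 2 or 3 at 16 weeks, and Tfeb without control replicate 4.

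Hypoxia, glucocorticoids and p53 are known inducers of Bnip3, Ddit4 and Sesn1, and genes that each of them induces were counted in the same way. Of 13 hypoxia-inducible genes, 2 were higher and 0 lower (median 0.15): Adm, which encodes the vasodilator adrenomedullin, by 0.60 (SE 0.16, adjusted p = 0.0395) and Hmox1, haem oxygenase, by 0.91 (SE 0.25, adjusted p = 0.0424). Neither passed on values as deposited, and each fell short without replicate 1, 2 or 3 of either group. Counting the further arrays whose removal ended the call, 1 of control and 1 of 8 weeks for Adm and 1 of 16 weeks, 2 of 8 weeks and 1 of 24 weeks for Hmox1, this was so in 8 of 16 cases for Adm (adjusted p up to 0.129) and 10 of 16 for Hmox1 (adjusted p up to 0.122). Of 11 glucocorticoid-inducible genes, 3 were higher and 0 lower (median 0.45): Mt2A, Glul, glutamine synthetase, by 0.56 (SE 0.14, adjusted p = 0.0243) and Cebpd, a leucine zipper transcription factor, by 1.26 (SE 0.31, adjusted p = 0.0248); Mt2A alone of these passed without any 1 array, while Glul and Cebpd each fell short in 5 of 16 cases, replicate 1 at 16 weeks and control replicates 1, 2 and 3 among them (adjusted p up to 0.0820 and 0.0875). On values as deposited Glul did not pass (adjusted p = 0.0864). Of 9 p53 targets, Cdkn1a was higher and 0 were lower (median 0.23). Cdkn1a stood at 9.14, 9.40, 10.29 and 9.79 at 16 weeks, against 8.06, 8.22, 8.94 and 8.68 in control ventricles.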

How the data were processed

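Left ventricles of 16 rats were profiled on 1 Affymetrix array each. The authors deposited log2 intensities per probe set, made by RMA in Affymetrix Expression Console 1.2 per the submitters' processing notes; the names of the probe sets belong to a different Affymetrix rat design from that in the study's methods. Raw intensities were not used here, and no detection calls were given. Of 31099 probe sets, 57 manufacturer controls were left out and 31042 were tested without a filter on dim ones. Gene symbols came from the platform annotation (20826 probe sets with 1 symbol, 436 with several, 9780 unnamed here); all 9 gene IDs were found in the RefSeq table of GRCr8.

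Groups came from the sample labels. Each array was centred on its median, and 6.05, the mean of the medians, was added back. Group means and their differences were estimated over the 16 arrays together in limma 3.58.1 (R 4.3.3), with Benjamini-Hochberg adjustment of p-values over the 31042 probe sets and a call at an adjusted p under 0.05. The functions were tested on simulated data first. The labels do not say more of how replicates were obtained than 1 ventricle sample each, so p-values measure the spread between these samples. The number of arrays limits the precision.

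The members, the 12 pathway lists and the marker lists were chosen with earlier results of these data known. All members are named; from each list up to 4 called genes with the smallest adjusted p are named, or, where none was called, the 1 with the smallest; and 3 genes most alike are named for each of the 3 members with the widest range of group means. Alternatives were values as deposited, quantile normalization, array level as a block, arrays of the higher level only, the 2 groups only, trended robust priors, array weights, the brighter probe sets (mean above the median), 1 probe set per gene, the test that the study's methods name, a replicate block, and leaving out each array. For the lists, 4 of these were added after seeing the data. Promoters, 250 bases before to 50 after the start, are from RefSeq on GRCr8. Figures were drawn with matplotlib 3.10.9.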

Additional observations from a re-analysis of the deposited data

Results flagged for a closer look

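In 3 of 56 sets of 4 arrays (14 probe sets in 4 groups), 1 array lay farther from the other 3 than Dixon's ratio allows at its 95% critical value; chance alone gives such a value in about 1 of 20 sets. Mstn in ACF 16 weeks replicate 1 had a log2 intensity of 6.17, against 3.74 to 4.02 on the other 3 arrays at 16 weeks (ratio 0.883). Sesn1 in ACF 24 weeks replicate 1 had 10.11, against 9.57 to 9.60 (ratio 0.945). A further Foxo3 probe set in ACF 16 weeks replicate 2 had 3.44, against 3.59 to 3.60 (ratio 0.950). The Mstn array is also the one with the lowest cardiomyocyte markers and the highest macrophage and matrix markers; a link between these and its Mstn value was not tested.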

How the results depend on the processing

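Of 1187 recomputed differences of the members, 1132 kept their direction and side of the threshold, 5 fell short of it, 2 newly passed it and 48 changed sign without being called; no called difference reversed. With 4 arrays per group, the median standard error of all genes was 0.12, and the SE of Ddit4, Mstn and Ddit4l was 0.37, 0.35 and 0.32. Even the difference of -1.03 for Ddit4l at 24 weeks did not pass (adjusted p = 0.140 in limma). Smaller differences of these genes could therefore hardly pass. The absence of detection calls limits what can be said of Mstn and of the further Foxo1 and Foxo3 probe sets.

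The count of members called at 16 weeks, 2, was 1 on values as deposited and 0 by the test that the study's methods name, and 1 to 2 with 1 array left out; at 24 weeks, 0 in the reported fit, it was 2 on values as deposited. With 1 array left out it was 0 at 8 and 24 weeks and in both comparisons between times. By the methods' test the adjusted p at 16 weeks was 0.129 for Bnip3 and 0.159 for Ddit4l. At the methods' threshold of a fold above 1.5 and an unadjusted p under 0.05, Ddit4l passed at 8 weeks, Ddit4l and Bnip3 at 16 weeks and Ddit4 and Ddit4l at 24 weeks on centred values; on values as deposited Ddit4 did not pass at 24 weeks and the others did.

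Over all probe sets at 8 weeks, 10 were called in the reported fit, 1 on values as deposited, 42 with the array level as a block, 55 on arrays of the higher level, 79 on the 2 groups only, 164 with array weights, 2 by the methods' test, 1 with the replicate block, and 1 to 32 with 1 array left out. At 16 weeks 1698 were called, 88 by the methods' test and 744 (without control replicate 1) to 2100 with 1 array left out. At 24 weeks 136 were called, 3839 on values as deposited, 4 with the array level as a block, 865 with array weights, 0 by the methods' test, and 4 to 873 with 1 array left out. Between 16 and 8 weeks 0 were called (2195 at an unadjusted p under 0.05), 223 on arrays of the higher level, 1 with array weights and 0 to 2 with 1 array left out. Between 24 and 16 weeks 4 were called, 1 on values as deposited, 1 among the brighter probe sets, 2 by the methods' test, 0 with quantile normalization, the array level as a block, array weights, 1 probe set per gene or the replicate block, and 0 to 14 with 1 array left out. Arrays of the higher level gave no value at 24 weeks, where there are none. The methods' test above was run on centred values; on values as deposited it called 0 at 8 weeks, 163 at 16 weeks, 3068 at 24 weeks, 0 between 16 and 8 weeks and 2 between 24 and 16 weeks. The cause of these shifts was not tested. Of the probe sets called at 16 weeks, 66.1% were higher (1123 higher, 575 lower), but 26.8% on values as deposited (462 and 1259) and 55.3% after quantile normalization (1046 and 845); at 24 weeks the share was 61.8% and 3.78% as deposited.

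The lists at 16 weeks changed as follows. Called genes of the insulin, PI3K and Akt arm were 0 in the reported fit, 2 on values as deposited, 1 after quantile normalization and 2 with the array level as a block; of the mTOR complexes 0, 1, 2 and 2; and of proteasome subunits 0, 3, 0 and 3. With 1 array left out the calls were 1 to 2 of the ubiquitin ligases (2 with all arrays), 0 to 2 of the FoxO targets (1), 1 to 2 of the other brakes (2), 0 to 3 of mitophagy and autophagy (3), 0 to 5 of the hypoxia-inducible (2), 1 to 4 of the glucocorticoid-inducible (3) and 3 to 5 of the myostatin and activin genes (3), the lowest of each among others without ACF 16 weeks replicate 1; they were 0 to 1 of the insulin, PI3K and Akt arm, 0 to 2 of the mTOR complexes and of proteasome subunits, and stayed at 4 of the atrophy programme and 1 of the p53 targets.

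Replicate numbers were not used as pairs: correlations of the deviations of same-numbered arrays ran from -0.27 to 0.24 and were not above 0.1 for every pair of any comparison. With the replicate block, 2 members were called at 16 weeks, with a difference of 0.73 for Bnip3 (adjusted p = 0.0102) and -1.43 for Ddit4l (adjusted p = 0.0227), and 0 at 8 and 24 weeks.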
